A study of Mus musculus with 6 samples.

Results

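The miR-26 family consists here of mmu-miR-26a-5p and mmu-miR-26b-5p (miR-26a-5p and miR-26b-5p below), 2 of the 1881 mouse miRNAs on the array, found by name in the probe annotation. The rule that finds them uses no measured value, but the family was picked for description with earlier results of these arrays known. It was measured in tumours grown from Hepa1-6 cells, a mouse hepatoma line, in the right flank of C57BL/6 mice. In the GLE group, 3 mice received GLE, an agent given in the labels by this abbreviation alone, with a daily total of 0.023 g stated for 10 g of body weight. In the model group, 3 mice received 0.2 ml of saline daily for 28 days, and the labels give 28 d as the age of all 6 samples. Every mouse carried the same line and gave 1 tumour and 1 array, so each group held 3 animals and the tumours model 1 transplanted line outside the liver.

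Mature miRNAs guide Argonaute proteins to complementary sites in messenger RNAs, and the seed near the 5′ end selects most of the targets. The miR-26 family restrains growth through targets that include cyclins, cyclin-dependent kinases and the Polycomb methyltransferase EZH2. Its genes lie within genes of small C-terminal domain phosphatases, which act in the same growth-restraining direction through the retinoblastoma protein. MYC represses the family, human liver cancers commonly hold less of it than the surrounding liver, and restoring miR-26a slowed tumours in a mouse model of liver cancer.

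The mature sequences show which products the arrays can and cannot separate, and they are given 5′ to 3′ from RefSeq (GRCm38.p6, plus strand) with the seed, bases 2 to 8, in capitals.
miR-26a-5p: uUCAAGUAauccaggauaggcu
miR-26b-5p: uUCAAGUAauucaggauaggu
miR-26a-1-3p: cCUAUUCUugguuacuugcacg
miR-26a-2-3p: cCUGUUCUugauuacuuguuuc
miR-26b-3p: cCUGUUCUccauuacuuggcuc
The first 2 are the arms that accumulate, and the other 3 are the passenger arms of the same hairpins. miR-26a-5p arises in identical form from Mir26a-1 on chromosome 9, within the bounds of Ctdspl, and from Mir26a-2 on chromosome 10, within the bounds of Ctdsp2. miR-26b-5p arises from Mir26b on chromosome 1, within the bounds of Ctdsp1. Counted from the 5′ end, the members are identical at 19 of 21 positions and differ by C11U and C21U (miR-26a-5p first), and miR-26a-5p has 1 further base at its 3′ end. They share the seed UCAAGUA, which no other mature mouse miRNA among the 1679 in the RefSeq table carries. Of the passenger arms, those of Mir26a-2 and Mir26b share the seed CUGUUCU, which miR-6932-3p and miR-7039-3p carry as well.

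Each member is read by 2 probes, shown because the bases that separate the members decide what each probe reports. Capitals mark the probe bases that lie opposite a position at which the other member differs or has no base.
miR-26a-5p, probe of 15 bases: AGcctatcctgGatt
miR-26a-5p, probe of 16 bases: AGcctatcctgGatta
miR-26b-5p, probe of 19 bases: AcctatcctgAattacttg
miR-26b-5p, probe of 20 bases: AcctatcctgAattacttga
The shorter miR-26a-5p probe pairs with bases 8 to 22 and faces 3 positions unlike miR-26b-5p. The longer miR-26b-5p probe pairs with bases 2 to 21 and faces 2 positions unlike miR-26a-5p. Outside the family, the longest run that any mature miRNA shares with the targets of these probes is 9 bases for miR-26a-5p and 10 bases for miR-26b-5p. On mm9, the build of the array files, the shorter miR-26a-5p probe maps to chromosome 9 (118940936 to 118940950) and also to chromosome 10 (126432606 to 126432620). The longer miR-26b-5p probe maps to chromosome 1 (74440900 to 74440918). Signal of miR-26a-5p is therefore the sum over both of its genes. How much of one member's RNA binds the other's probes was not tested.

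All 6 arrays lay on 1 slide and were scanned together. Per the file headers the GLE arrays occupied 1 slide row and the model arrays the other, so slide row and treatment cannot be told apart in any comparison below. The scaling intensity, a 75th percentile per array, was 203 to 364 for GLE arrays and 211 to 313 for model arrays, and 396 to 456 miRNAs were detected on GLE arrays against 378 to 458 on model arrays. GLE replicate 2 was the brightest array. Of the hepatocyte markers, miR-122-5p, the main miRNA of mature hepatocytes, was detected on 2 of the 6 arrays, and miR-802-5p and miR-455-3p were detected on 0. The other 3 of the 6 markers were detected more widely, miR-192-5p and miR-148a-3p on 6 arrays and miR-194-5p on 5.

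Both members were clearly measured in every tumour. All 173 usable spots of miR-26a-5p and all 177 usable spots of miR-26b-5p were well above background, and 0 were saturated. Before scaling, the miR-26a-5p probes averaged 853 to 3786 intensity units per array and the miR-26b-5p probes 246 to 997, while the 99th percentile of negative control spots lay between 5.12 and 7.36. Spots of 1 probe on 1 array had a median coefficient of variation of 2.00% for miR-26a-5p and 3.43% for miR-26b-5p. The resulting spot error of a log2 value was at most 0.0066 for miR-26a-5p and 0.013 for miR-26b-5p, well under the SD between tumours of a group.

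The design compared tumours of GLE-treated mice with model tumours. No difference between the groups was detected for either member: both estimates lay near 0 and inside the spread of the tumours. Differences are log2 values, GLE minus model, with the SE of a limma fit over all 388 miRNAs bright enough to be tested, with p-values adjusted over all of them (Benjamini-Hochberg). Values of single tumours follow the order of replicates 1, 2 and 3. Levels are log2 intensities scaled to each array's 75th percentile.

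miR-26a-5p, the member studied most as a tumour suppressor in liver, stood at 2.53, 2.93 and 2.29 in the GLE tumours, while the model tumours gave 2.78, 2.75 and 2.50. The highest and the lowest of the 6 tumours were both GLE tumours, so the model values lay inside the GLE range. The means were 2.58 ± 0.32 among GLE tumours, against 2.68 ± 0.15 among the model tumours (SD, n = 3 each). The difference was −0.093 ± 0.21, a 0.937-fold level (limma adjusted p = 0.950), with a 95% interval of 0.662-fold to 1.33-fold.

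miR-26b-5p, which carries the same seed, stood at 0.75, 1.10 and 0.56 in the GLE tumours, while the model tumours gave 0.89, 0.85 and 0.57. Here too GLE replicate 2 was the highest tumour and GLE replicate 3 the lowest, and the groups overlapped. The means were 0.80 ± 0.27 among GLE tumours, against 0.77 ± 0.17 among the model tumours (SD, n = 3 each). The difference was 0.031 ± 0.20, a 1.02-fold level (limma adjusted p = 0.973), with a 95% interval of 0.733-fold to 1.42-fold.

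So 0 of the 2 members passed, as did 0% of the 388 tested miRNAs, of which 1.55% (6) had an unadjusted p under 0.05. This last count rested on single libraries: it was 107 without GLE replicate 2, 0 without GLE replicate 1, GLE replicate 3 or model replicate 2, and 1 without model replicate 1. Of all tested miRNAs, 68.6% had a more positive difference than miR-26a-5p and 45.6% a more positive one than miR-26b-5p, which places both in the middle of the table. With this scaling the intervals leave room for a loss to 0.662-fold or a gain to 1.42-fold but hold no 2-fold change in either direction. Scaling on the hybridisation spike-ins gave much wider errors, with differences of 0.54 ± 0.63 for miR-26a-5p and 0.66 ± 0.63 for miR-26b-5p, and does not bound the change in this way. Without GLE replicate 3 the miR-26a-5p difference was 0.052, and without GLE replicate 2 it was −0.27, with the miR-26b-5p difference at −0.12. The miR-26b-5p difference was −0.069 without model replicate 3. The sign of neither member is settled by these arrays.

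**Figure D1:**
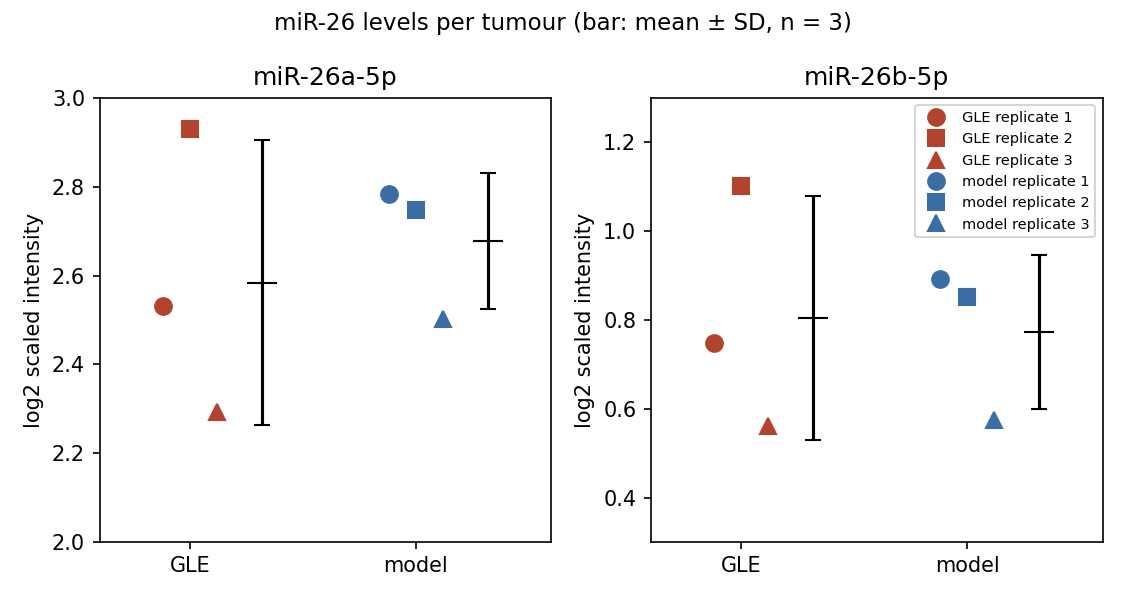
Scaled log2 intensity of miR-26a-5p (left) and miR-26b-5p (right) in each GLE and model tumour. Points are single arrays and black bars are group means ± SD (n = 3). In both panels GLE replicate 2 is the highest point and GLE replicate 3 the lowest, and the groups overlap.

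The 2 probes of a member moved together. The miR-26a-5p probes of 15 and 16 bases gave differences of −0.095 and −0.092, and the miR-26b-5p probes of 19 and 20 bases gave 0.019 and 0.042. Between the miR-26a-5p probes the per-array gap was 0.91 ± 0.0093 among GLE tumours, against 0.91 ± 0.010 among the model tumours (SD, n = 3 each). Between the miR-26b-5p probes it was 0.73 ± 0.022 among GLE tumours, against 0.71 ± 0.014 among the model tumours (SD, n = 3 each). The group difference of either gap was not past the replicate spread (two-sided exact permutation p = 0.7 for miR-26a-5p and 0.2 for miR-26b-5p, smallest possible 0.1).

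**Figure D2:**
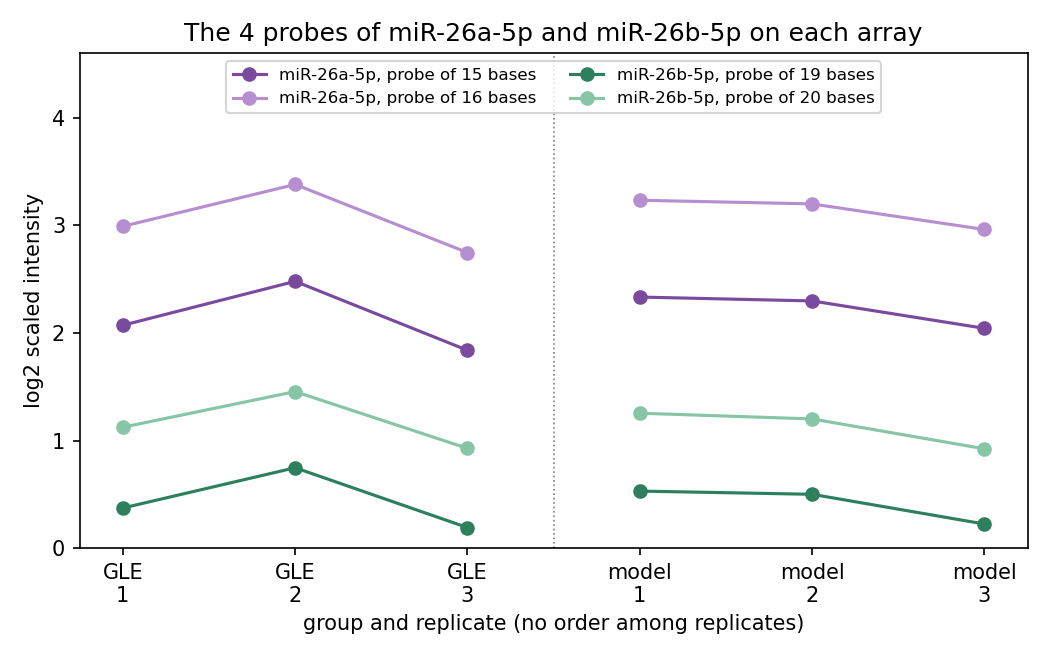
Scaled log2 intensity of the 4 probes of miR-26a-5p and miR-26b-5p on each array, GLE arrays left of the dotted line and model arrays right of it. Lines join replicates within a group only to make the probes comparable by eye. All 4 probes are highest on GLE replicate 2. The height of a line depends on the probe, so heights of different probes are not comparable.

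The members ran together over the tumours. The order of the 6 tumours from high to low was the same for both (Spearman rho = 1, exact permutation p = 0.00278, the smallest that 720 pairings can give, adjusted p = 0.0139 over the 5 relations computed). Pearson r was 0.95 (exact permutation p = 0.00694, adjusted p = 0.0347) and 0.90 without GLE replicates 2 and 3. Such a joint course was not particular to the family. The 5 miRNAs named below for miR-26a-5p had a higher r with it, from 0.969 to 0.996. For miR-26b-5p, miR-139-5p had a higher r (0.970). Each array's values were divided by the same scaling factor for both members. Relations of each member with the array's 75th percentile were weaker, at r = 0.72 for miR-26a-5p (exact permutation p = 0.119, adjusted p = 0.199, rho = 0.60, exact permutation p = 0.242) and r = 0.79 for miR-26b-5p (exact permutation p = 0.0667, adjusted p = 0.167, rho = 0.60, exact permutation p = 0.242). They were −0.21 and −0.10 without GLE replicate 2 and model replicate 1, so they rested on the 2 brightest arrays. With the number of detected miRNAs, r was 0.40 for miR-26a-5p (exact permutation p = 0.426) and 0.56 for miR-26b-5p (exact permutation p = 0.242), with rho = 0.54 for both (exact permutation p = 0.297), and neither passed. Each slide row held 3 arrays, too few for a correlation within a row.

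Set against each other within an array, the members separated the groups where their levels did not. The log2 value of miR-26a-5p minus that of miR-26b-5p was 1.78, 1.83 and 1.73 in the GLE tumours, while the model tumours gave 1.89, 1.90 and 1.93. The size of these values reflects unlike probes and is not a ratio of molecules, and their change between tumours is what the measure shows. All 3 GLE tumours lay below all 3 model tumours. The means were 1.78 ± 0.048 among GLE tumours, against 1.90 ± 0.020 among the model tumours (SD, n = 3 each), a difference of −0.12. Taken relative to miR-26b-5p, miR-26a-5p in GLE tumours was thus at 0.918-fold of its value in model tumours.

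The exact permutation p was 0.1 (two-sided, 20 relabelings). This is the smallest that this test allows with 3 against 3 arrays, so it cannot bring the difference past 0.05. Over the 9 pairs of a GLE and a model array, the difference ran from −0.19 to −0.062. The spot error of the measure was between 0.0074 and 0.014 per array. The groups also did not overlap for 8.45% of the 75078 pairs of tested miRNAs, so a pair that separates the groups is not rare on these arrays. All 4 pairings of a miR-26a-5p probe with a miR-26b-5p probe gave groups that did not overlap, with differences from −0.14 to −0.11. These pairings share probes and RNA, and the probes of a member moved together, so they are not separate observations. Scaling every probe of an array by 1 factor leaves the measure unchanged, but quantile normalisation brought it to −0.048 (exact permutation p = 0.5). In the authors' deposited table it was −0.068 (exact permutation p = 0.6), and that table gives model replicates 1 and 2 the same value for miR-26a-5p (9.96) and gives GLE replicate 2 and model replicate 1 the same value for miR-26b-5p (8.08).

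**Figure D3:**
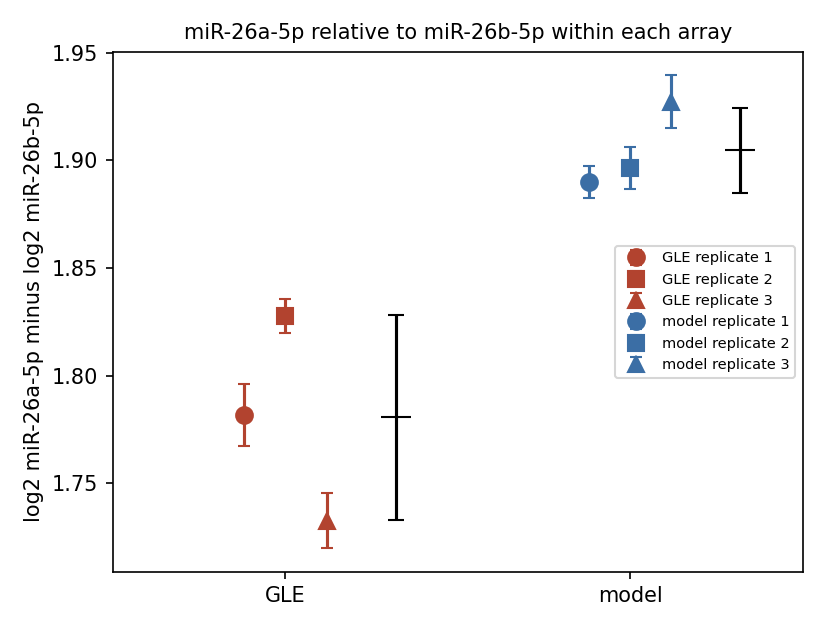
Log2 value of miR-26a-5p minus log2 value of miR-26b-5p within each array, for GLE and model tumours. Coloured bars are the spot error (SE) of each array and black bars are group means ± SD (n = 3). The 3 GLE arrays, from 1.73 to 1.83, lie below the 3 model arrays, from 1.89 to 1.93; the axis does not start at 0.

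The passenger arms, which could tell the 3 genes apart, were not well above background on any array. miR-26a-1-3p and miR-26a-2-3p have 2 probes each and miR-26b-3p has 4, and each arm was detected on 0 of the 6 arrays. Of their usable spots, 0 of 176 for miR-26a-1-3p, 0 of 177 for miR-26a-2-3p and 0 of 168 for miR-26b-3p were well above background. Probe means were at most −0.21 intensity units for miR-26a-1-3p and 1.46 for miR-26a-2-3p. For miR-26b-3p the highest was 5.31, from 1 probe on model replicate 1, slightly above the 99th percentile of single negative control spots on that array (5.12). Which share of miR-26a-5p came from Mir26a-1 in Ctdspl and which from Mir26a-2 in Ctdsp2 was therefore not measurable here.

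The miRNAs whose levels ran most like the family over the 6 tumours were named by Pearson r among 386 other tested miRNAs, as a description without a test. For miR-26a-5p they were miR-200a-3p (r = 0.996), miR-184-3p (r = 0.978), miR-200b-3p (r = 0.975), miR-429-3p (r = 0.972) and miR-23a-3p (r = 0.969). miR-200a, miR-200b and miR-429 are made from 1 precursor transcript and mark epithelial cells. For miR-26b-5p they were miR-139-5p (r = 0.970), miR-23a-3p (r = 0.957), miR-99a-5p (r = 0.956), miR-192-5p (r = 0.956) and miR-194-5p (r = 0.940). In GLE replicate 2, miR-192-5p stood at 0.26 and miR-194-5p at −0.97, against at most −1.64 and −2.82 in the other tumours. miR-194-5p lay at the floor (−4.25) in model replicate 3. miR-192 and miR-194 are hepatocyte and gut epithelial miRNAs, and miR-139, like miR-26, is known to be low in liver cancer. Only miR-23a-3p stood in both sets of 5.

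These miRNAs ran in a similar order over the tumours but with unlike amplitude. miR-200a-3p stood at −0.48, 1.40 and −1.62 in the GLE tumours, while the model tumours gave 0.95, 0.61 and −0.49. Its range over the tumours was thus much wider than that of miR-26a-5p, which spanned 0.64 between GLE replicates 2 and 3, or 1.55-fold. miR-23a-3p was flatter, at 2.07, 2.25 and 1.93 in GLE tumours against 2.21, 2.12 and 2.00 in model tumours. In every one of these miRNAs GLE replicate 2 was the highest tumour.

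**Figure D4:**
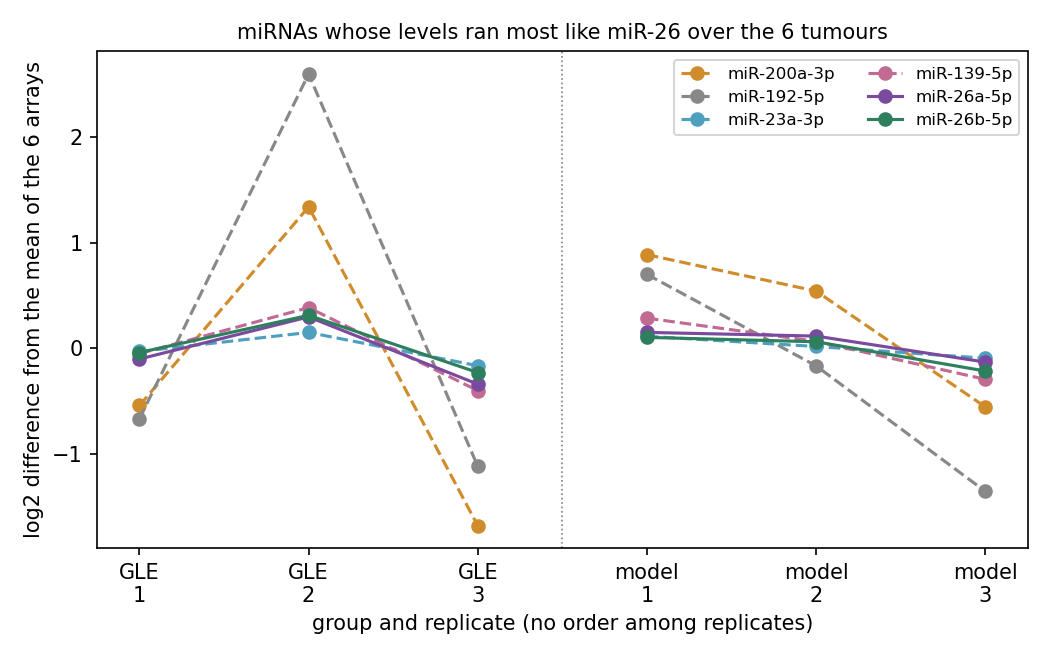
Log2 difference of each array from the mean of the 6 arrays, for miR-26a-5p and miR-26b-5p (solid) and 4 of the miRNAs most like them (dashed). GLE arrays are left of the dotted line and model arrays right of it; replicates have no order. All 6 miRNAs peak in GLE replicate 2, with miR-200a-3p and miR-192-5p moving further than the family.

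Cell type markers varied over the same tumours. Of the 6 epithelial and skin markers, miR-200a-3p and miR-200b-3p were tested, miR-141-3p and miR-200c-3p were detected on 0 arrays, miR-203-3p was detected on 4 and miR-205-5p on 1. The summed epithelial level (log2) was 1.37, 2.97 and 0.11 in the GLE tumours, while the model tumours gave 2.61, 2.21 and 1.49. Both summed markers are among the miRNAs named above for their likeness to miR-26a-5p, so this order is no separate observation. The 7 immune and blood cell markers, all tested, summed to 3.46, 2.52 and 4.01 in the GLE tumours, while the model tumours gave 2.36, 2.24 and 2.88. The 5 fibroblast and smooth muscle markers, all tested, summed to 1.30, 0.53 and 2.09 in the GLE tumours, while the model tumours gave 0.62, 0.34 and 0.94. The 3 tested of 6 hepatocyte markers summed to −0.30, 1.38 and −0.86 in the GLE tumours, while the model tumours gave 0.29, −0.18 and −0.50. The 1 tested of 2 endothelial markers, miR-126a-3p, stood at 1.88, 1.52 and 2.00 in the GLE tumours, while the model tumours gave 1.44, 1.20 and 1.29, with no overlap. The 4 skeletal muscle markers summed to 2.15, 0.38 and 0.40 in the GLE tumours, while the model tumours gave −0.31, 1.00 and 0.83. The 2 tested of 3 erythrocyte markers summed to 3.42, 2.42 and 1.53 in the GLE tumours, while the model tumours gave 2.48, 2.06 and 3.60. GLE replicate 3, lowest for both members, was highest in immune, fibroblast and endothelial markers. Its summed level was lowest for epithelial, hepatocyte and erythrocyte markers, and neither highest nor lowest for skeletal muscle ones. Of the tested hepatocyte markers, only miR-148a-3p (−1.31) was lowest in GLE replicate 3. The others, miR-192-5p (−3.69) and miR-194-5p (−4.25), were lowest in model replicate 3. The part of cell makeup in the levels of the family was not tested, and in tumour pieces fewer cells of a type and less RNA per cell cannot be told apart.

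Other miRNAs of the same regulatory setting were listed to place the family. Of 23 miRNAs that MYC represses, the 2 members included, all were tested, 16 had a positive and 7 a negative difference, 0 passed, and the median was 0.067. Over all 388 tested miRNAs, 198 were positive, 0 passed and the median was 0.0078. miR-22-3p, a miRNA abundant in liver, had the next largest positive statistic after miR-146a-5p and stood at 2.31, 1.82 and 2.55 in the GLE tumours, while the model tumours gave 1.72, 1.62 and 1.80. Every GLE tumour exceeded every model tumour, with a difference of 0.52 ± 0.22 (limma adjusted p = 0.935). miR-146a-5p, a brake on inflammatory signalling that also stands among the immune markers, led the list by its limma statistic with a difference of 0.63 ± 0.24, while miR-150-5p (0.85) and miR-195a-5p (0.64) had larger differences. At the other end stood miR-30c-5p at −0.41 ± 0.33 and miR-30a-5p at −0.40 ± 0.35. Groups did not overlap for 4 of the 23, against 6.7% of all tested miRNAs. Leaving out GLE replicate 2 put the list's median at 0.0083, leaving out GLE replicate 3 put it at 0.17, and it turned to −0.021 with scaling on the 75th percentile of all probes.

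The 9 tested miRNAs that MYC induces, those of the miR-17-92 and miR-106b-25 clusters, all had negative differences, with a median of −0.24 and 0 passing. Over all 388 tested miRNAs, 190 were negative. The groups were without overlap for 0 of the 9, against 6.7% of all tested miRNAs. The largest negative statistics belonged to miR-17-5p at −0.35 ± 0.28 and miR-93-5p at −0.35 ± 0.31. Leaving out GLE replicate 2 put the median at −0.47, leaving out GLE replicate 3 put it at 0.048, and it turned to 0.39 with scaling on the hybridisation spike-ins.

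Of 18 miRNAs known to be low in hepatocellular carcinoma, 17 were tested. In these, 12 differences were positive, 5 were negative, 0 passed and the median was 0.25. After miR-22-3p, the largest positive statistic was that of miR-101a-3p, which like miR-26 targets EZH2. It stood at −1.63, −1.81 and −1.52 in the GLE tumours, while the model tumours gave −2.00, −2.04 and −2.01, with no overlap and a difference of 0.36 ± 0.16 (limma adjusted p = 0.935). The negative end held miR-125b-5p at −0.22 ± 0.18 and miR-29c-3p at −0.25 ± 0.36. In this list 2 of the 17 had no overlap of the groups, against 6.7% of all tested miRNAs. Several positive members of this list, such as miR-150-5p (0.85), miR-223-3p (0.84) and miR-199a-3p (0.81), are also immune or fibroblast markers, and these 3 differences exceed that of miR-101a-3p. The list's median was 0.15 with model replicate 3 left out and 0.88 with scaling on the hybridisation spike-ins. The immune sums above were highest in GLE replicates 3 and 1, and the part of these cells in the list's values was not tested.

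Of 10 miRNAs known to be raised in hepatocellular carcinoma, 9 were tested, 4 with a positive and 5 with a negative difference, a median of −0.18 and 0 passing. miR-21a-5p at 0.39 ± 0.18 and miR-155-5p at 0.71 ± 0.35 led on the positive side by statistic. For miR-21a-5p and for miR-222-3p (0.31 ± 0.17), every GLE tumour exceeded every model tumour. These are 2 of the 9 without overlap, against 6.7% of all tested miRNAs. miR-210-3p at −0.25 ± 0.20 and miR-93-5p were lowest by statistic. The median was −0.35 with GLE replicate 2 left out, 0.060 with GLE replicate 3 left out, and turned to 0.45 with scaling on the hybridisation spike-ins.

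**Figure D5:**
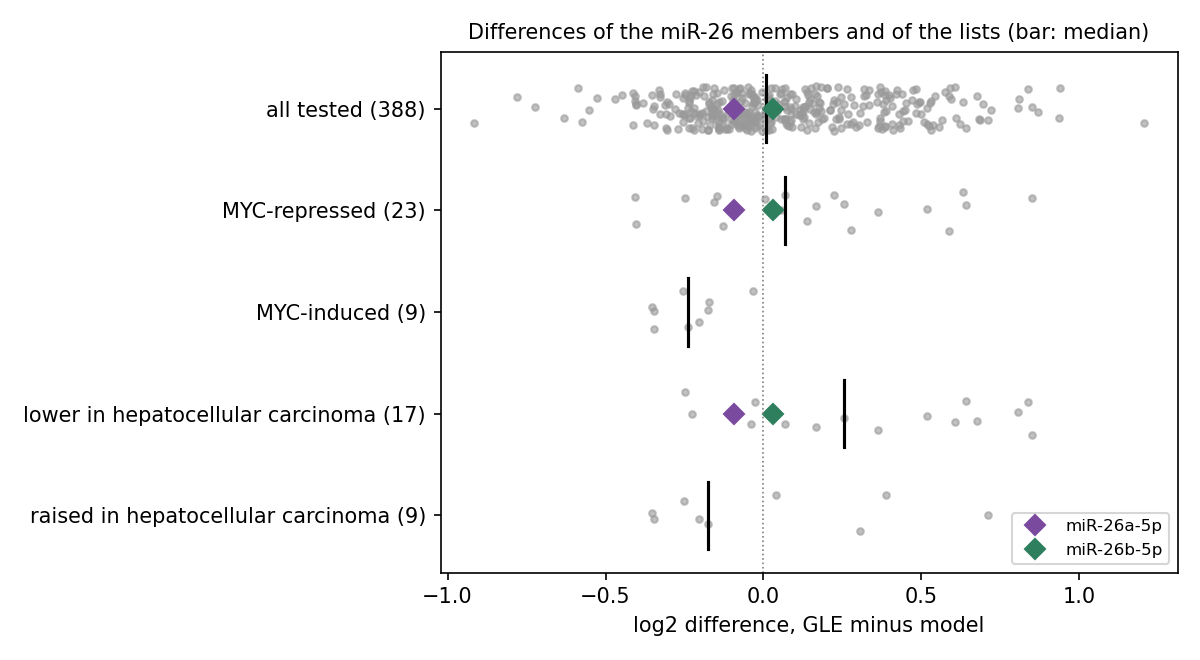
Log2 difference, GLE minus model, of all 388 tested miRNAs and of the tested members of 4 lists, with the number tested in brackets. Grey points are miRNAs, black bars are medians and diamonds are miR-26a-5p (−0.093) and miR-26b-5p (0.031), which lie near 0 in each row they belong to; vertical scatter within a row has no meaning.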

How the data were processed

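Total RNA of 6 tumours was labelled with Cy3 and hybridised to 1-colour Agilent miRNA arrays, 1 per mouse. Per the file headers, the deposited spot values are intensity from Agilent Feature Extraction 10.7.1.1, background-subtracted and spatially detrended, on a linear scale and not normalised between arrays. The authors also deposited a table of processed values, with no account of its making in the sources used here. Those values are on a log2 scale, as the deposited columns follow the scanner values of their arrays (Spearman 0.963 to 0.973 over the 388 tested miRNAs, slope 1.09 to 1.17), and their medians were −3.20, −3.32 and −3.27 for GLE and −3.32, −3.17 and −3.13 for model replicates 1 to 3, each the lowest value of its column. How they were scaled or centred stays unknown, and the table served as an alternative only.

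With R 4.3.3 and limma 3.58.1, spots of control probes and those with an outlier flag were dropped, and the remaining spots of each probe averaged. A probe was detected where over a share of 0.5 of its spots were well above background. Arrays were divided by the 75th percentile of the 636 probes found on all 6, floored at −4.25 (log2), and a miRNA was the mean of its probes detected on all arrays of a group. lmFit and eBayes compared the groups. The fit was tested on simulated data. Single measures had two-sided exact permutation tests. The family, the lists and the rules were chosen with earlier results of these data known, although finding the members by name uses no measured value. Named miRNAs are the members, their passenger arms, miRNAs that share a seed with these, the 5 most like each member, and miR-122-5p. Up to 2 per direction with the largest statistic in each of 4 lists are named too. Any other is a cell type marker or was chosen after its values were seen. Precision is limited by the number of arrays. The labels call each sample a separate mouse.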

Additional observations from a re-analysis of the deposited data

How the results depend on the processing

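Under 24 alternatives, neither member passed the limma threshold (adjusted p from 0.404 to 1.00 for miR-26a-5p, and from 0.592 to 1.00 for miR-26b-5p). The miR-26a-5p difference kept its negative sign in 22 of them and turned to 0.54 with scaling on the hybridisation spike-ins. That scaling moved the median of all tested miRNAs to 0.60, against which miR-26a-5p lay at −0.067 and miR-26b-5p at 0.057. The miR-26b-5p difference turned to −0.058 with the 75th percentile of all probes, −0.033 with the median of detected probes, −0.00031 with quantile normalisation, −0.0059 with labelling spike-ins, −0.021 with the median of spots and −0.017 in the authors' table. With an array left out, miR-26a-5p ran from −0.27 to 0.052, miR-26b-5p from −0.12 to 0.15, the gap between the members from −0.15 to −0.10, and the count past the threshold from 0 to 2. The 2 appeared without GLE replicate 2, and neither was a member. The gap between the members stayed negative in all 24 alternatives, but many of these could not change it. Scaling by 1 factor per array, the detection filters, the floor, the eBayes settings and the replicate block left it at −0.12. In the alternatives able to change it, the gap ran from −0.15 to −0.048 (exact permutation p from 0.1 to 0.6). These include the longer and the shorter probes alone, a choice made after seeing the data. With normexp background correction the gap was −0.11 (exact permutation p = 0.2). With the replicate number as a block, the differences were −0.093 and 0.031 with 0 miRNAs past the threshold and 17 at an unadjusted p under 0.05, against 6 without it, and the gap had an exact permutation p of 0.25, the smallest that 3 pairs allow. Deviations of same-numbered arrays from their group means had correlations of −0.62, −0.18 and 0.37, with no common sign. With 3 arrays per group this check cannot exclude a pairing. The numbers were not taken to pair the samples. Same-numbered arrays of both groups lay in the same slide column, so the block is also one for column. A block for slide or scan was not run, as all arrays shared both.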
